A study of Drosophila melanogaster with 8 samples.

Results

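The genotype comparison described here sets wing discs in which Antp was targeted by CRISPR beside control wing discs, in the libraries that carried almost no gut RNA. Libraries were chosen by 1 transcript, Jon65Aiv, which encodes a larval gut protease, and those with under 20 CPM (counts scaled to a common total of gene reads) were kept. The rule kept 5 of the 8 libraries, namely CRISPR 1, CRISPR 2 and CRISPR 4 against wt 1 and wt 4. Jon65Aiv was at 0.179 to 4.73 CPM in the 5 kept libraries and at 634 to 1341 CPM in wt 2, wt 3 and CRISPR 3, which were left out. No library lay between these ranges.

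RNA came from whole wing discs, dissected from wandering larvae of Drosophila melanogaster about 5 days after egg lay at 29 °C. In the control, labelled wt, the driver line 1151 was crossed to w1118. In the other genotype, 1151>AntpCRISPR, the same driver directed CRISPR against Antp, and the study's design text places that targeting in the adult muscle precursors (AMPs). The control cross carried no CRISPR transgene, so Antp targeting, the transgenes and the genetic background cannot be told apart. The submitters marked CRISPR 1 and CRISPR 2 as used in their own analysis and wt 1, wt 4 and CRISPR 4 as not used. Whether each library stands for its own pool of larvae is not stated in the labels, and p-values therefore reflect library-to-library spread, which may be technical.

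Antp is a Hox transcription factor, one of the homeodomain proteins that give segments their identity along the body axis, and it acts with the cofactors Extradenticle and Homothorax. The AMPs are mesodermal cells that lie on the notum side of the wing disc and later form the flight muscles. They are held undifferentiated by factors such as Twist, Zfh1 and Him, while the epithelium below is patterned by Hedgehog, Dpp and Wingless signals. RNA of the whole disc holds both cell types, and fewer cells of a type cannot be told from less RNA per cell.

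In the kept libraries, wt 1 was the deepest with 44631268 gene reads and CRISPR 1 the shallowest with 35076546. Markers of the labelled tissue were present in every kept library, with the wing pouch gene nub at 279 to 354 CPM, the notum gene pnr at 33.4 to 44.9 CPM and the AMP gene twi at 17.2 to 25.1 CPM. The libraries numbered 4 stood apart from the others, whatever their genotype. The first principal component carried 52.3% of the variance and set wt 4 (score 41.4) and CRISPR 4 (45.6) apart from the other 3 libraries. The robust SD of the log2 ratio between wt 4 and CRISPR 4 was 0.197, the smallest of the 10 pairs, and that between wt 1 and CRISPR 4 was 0.614, the largest. For wt 1 it was 0.325 against CRISPR 1 and 0.310 against CRISPR 2, so wt 1 was no closer to the library of its own number. Transcript length ran against level in wt 4 and CRISPR 4 (Spearman rho across genes of -0.33 and -0.44 with each library's deviation) and with it in the other libraries (0.18 to 0.32). The part of these differences in the results below was not tested beyond the alternatives given with them.

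Of 9330 genes tested across the 5 libraries, 0 (0%) passed edgeR's quasi-likelihood test, with a threshold of 0.05 on the p adjusted after Benjamini and Hochberg. The lowest adjusted p was 0.296, and 123 genes (1.32%) had an unadjusted p under 0.05. On the same libraries limma-voom called 0 genes with 110 at an unadjusted p under 0.05, and DESeq2 called 16. The biological coefficient of variation was 34.6% with 3 residual degrees of freedom. The median standard error of a log2 change was 0.26, and the median 95% interval reached 0.65 to either side. For 5739 genes (61.5%) the whole interval lay between log2 changes of -1 and 1, that is, within a 2-fold change either way. With 3 against 2 libraries, a change smaller than its own interval could not be told from 0. An interval that excluded 0 was not enough to pass over 9330 genes either. Ubx, at -1.78 to -0.45, did not pass, so larger changes than these intervals could also be missed.

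Full separation of the genotypes, meaning that every CRISPR library lay above, or every one below, both wt libraries, was counted as a description. It held for 883 genes (9.46%), with CRISPR above in 464 (4.97%) and below in 419 (4.49%). If the libraries were exchangeable, a gene would separate in either direction with a probability of 0.2. These counts are therefore not counts of genotype differences. With a group-mean ratio of at least 1.5, full separation held for 310 genes (3.32%), of which 147 (1.58%) were higher and 163 (1.75%) lower in CRISPR. Only 81 of these 310 had an average log2 CPM of at least 1. Leaving out any 1 library makes full separation easier to meet, and the count was then 1170 without wt 1, 1267 without wt 4, 542 without CRISPR 1, 532 without CRISPR 2 and 723 without CRISPR 4. In the 3 left-out libraries CRISPR 3 lay on the same side of both wt libraries for 212 of the 310 genes (68.4%). The share of all genes tested for which CRISPR 3 kept its side was not counted, so the 68.4% cannot be read as replication. Of the 310 genes, 130 (41.9%) separated the genotypes over all 8 libraries. Without a fold, that order over all 8 held with CRISPR above for 154 genes (1.65%) and below for 113 (1.21%).

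The targeted gene, Antp (FBgn0260642, chromosome 3R, 6896253 to 6999228, minus strand, dm6), was not lower on average in CRISPR discs. Its level, in CPM scaled by TMM factors as for all levels below, was 190.3 in wt 1 and 118 in wt 4, against 206 in CRISPR 1, 163 in CRISPR 2 and 144 in CRISPR 4. The genotypes overlapped, with means of 154 ± 51.2 (SD, n = 2) in wt and 171 ± 31.6 (SD, n = 3) in CRISPR. The log2 change was 0.15 with a standard error of 0.27 and a 95% interval of -0.51 to 0.81 (edgeR adjusted p = 1.0). An exact two-sided permutation test of the log2 level gave p = 0.6, where the smallest p that its 10 splits allow is 0.2. The sign rested on single libraries, since the log2 change was -0.01 without CRISPR 1 and -0.16 without wt 4, and 0.54 without wt 1. Counts of whole-gene RNA do not show whether the transcript was edited, and exons of Antp overlap those of CG46458, whose reads cannot be told apart because the strand setting of the counting is not given.

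Among the other Hox genes, Ubx, abd-A and Scr were lower in every kept CRISPR library than in both wt libraries. No Hox gene passed the test over all genes. Ubx (FBgn0003944, 3R, 16656623 to 16734426), which specifies the haltere-bearing segment, stood at 37.3 and 44.9 CPM in wt 1 and wt 4 and at 18.5, 25.0 and 13.5 CPM in CRISPR 1, 2 and 4. The groups did not overlap, the log2 change was -1.11 with a standard error of 0.27 (interval -1.78 to -0.45), and the unadjusted p of 0.00635 became an adjusted p of 1.0. In the left-out libraries the order was the opposite, with CRISPR 3 at 50.8 CPM above wt 2 at 35.3 and wt 3 at 36.7. Exons of Ubx overlap those of asRNA:PS4.

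abd-A, an abdominal Hox gene, was low, at 1.17 and 2.32 CPM in wt against 0.122, 0.348 and 0.539 CPM in CRISPR. Its lowest level, in CRISPR 1, was near the detection limit. These levels rested on 155 reads in wt and 42 in CRISPR, a ratio of 4.97 with a 95% counting interval of 3.51 to 7.17 that covers counting error only. The log2 change was -2.35 with a standard error of 0.69 (adjusted p = 1.0). Scr, the Hox gene of the first thoracic segment, had 1.10 and 2.27 CPM in wt against 1.01, 0.621 and 0.786 CPM in CRISPR (log2 change -1.07, standard error 0.51, adjusted p = 1.0). For Scr the nearest libraries, wt 1 and CRISPR 1, were almost level. The cofactor genes exd and hth overlapped between genotypes, with log2 changes of -0.10 and 0.02, as did tsh (-0.13) and tio (-0.06), which encode zinc finger proteins of the trunk. Of the 12 genes on the Hox and cofactor list 9 were tested, 3 were fully separated (33.3%, all below, beside 4.49% of all genes below) and 0 passed.

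**Figure D1:**
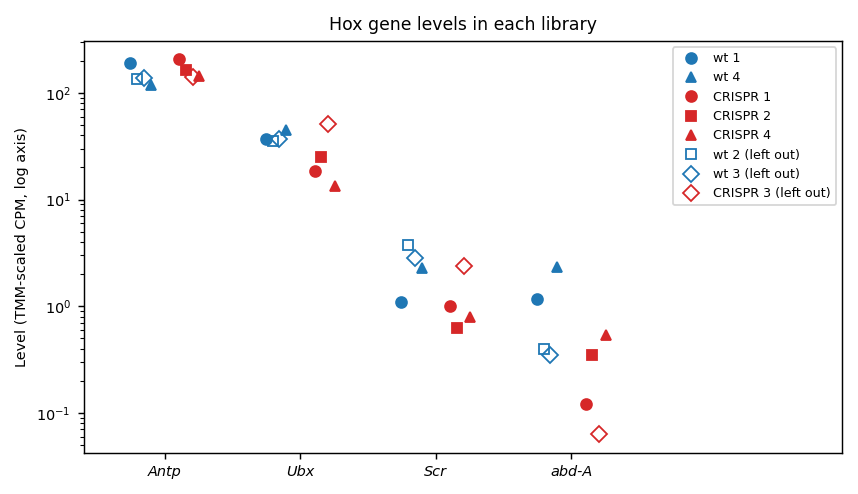
Levels of Antp, Ubx, Scr and abd-A in each library, as TMM-scaled CPM on a log axis, with wt in blue and CRISPR in red, filled symbols for the 5 kept libraries and open symbols for the 3 left out. Antp overlaps between genotypes, while the kept CRISPR libraries lie below the kept wt libraries for the other 3 genes, and CRISPR 3 lies at the top for Ubx (50.8 CPM).

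The core genes that mark AMPs overlapped between genotypes. The AMP list had 22 tested members, of which 0 passed the test, 2 separated below and 1 above, and the median log2 change was -0.11 beside 0.01 over all genes tested. twi, which encodes the mesodermal regulator Twist, was at 25.1 and 18.2 CPM in wt against 19.5, 22.4 and 17.2 CPM in CRISPR. Both genotypes covered nearly the same range, and the log2 change of -0.14 had an interval of -0.67 to 0.39.

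zfh1, a repressor that keeps AMPs undifferentiated, had 40.7 and 32.7 CPM in wt against 30.6, 40.9 and 33.2 CPM in CRISPR (log2 change -0.07, interval -0.55 to 0.40). htl, the FGF receptor of the mesoderm, had 46.0 and 27.6 CPM in wt against 30.4, 41.1 and 32.0 CPM in CRISPR (-0.09, interval -0.74 to 0.55). For both genes wt 1 or CRISPR 2 was the highest library and the genotypes overlapped. stumps, an adaptor downstream of that receptor, and Mef2, the muscle differentiation factor, overlapped as well, with log2 changes of -0.14 (interval -0.70 to 0.42) and -0.07 (-0.70 to 0.56). Him, an inhibitor of Mef2, was less well measured, at 10.04 and 16.6 CPM in wt against 7.30, 10.5 and 17.8 CPM in CRISPR (-0.17, interval -1.21 to 0.88). Those intervals exclude a 2-fold change for 5 of these 6 genes and leave one possible for Him. These 6 markers, named for their role in AMPs, fall outside the rule for named genes, as do vg, sd, aPKC, Mlc1, Act57B, zfh2, eyg, Myc, stg, Polr1A, Hsp23, Hsp27, Hsp70Bb, Xrp1 and roX1. Exons of twi, zfh1, nau, zfh2, aurA, Myc, Polr1A, mre11 and Hsp27 overlap those of another gene, as do those of hth, tio and Notum. The counts of all these genes are uncertain in the same way as for Antp.

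The 2 AMP genes with the largest fitted differences overlapped between genotypes. Alk, a receptor tyrosine kinase, was at 17.2 and 12.1 CPM in wt against 13.9, 6.79 and 4.04 CPM in CRISPR (log2 change -0.83, standard error 0.52). CRISPR 2 and CRISPR 4 were lower than both wt libraries, and CRISPR 1 lay between them. nau, the fly MyoD gene, was low, at 0.268 and 0.909 CPM in wt against 0.428, 0.0994 and 0.157 CPM in CRISPR (-1.39, standard error 0.86). Its lowest level, in CRISPR 2, was near the detection limit. E(spl)m6-BFM, a Notch target expressed in AMPs, was fully separated by a small margin, at 21.7 and 22.4 CPM in wt against 14.6, 18.2 and 21.3 CPM in CRISPR (-0.29, standard error 0.21, adjusted p = 1.0).

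On the list of muscle identity factors, lms was the single separated gene of 13 tested. lms (FBgn0034520, 2R, 20556877 to 20559953) encodes a homeodomain protein of lateral larval muscles and direct flight muscle precursors, and its exons overlap those of Mgat1. It had 0.853 and 3.20 CPM in wt against 0.550, 0.795 and 0.427 CPM in CRISPR. All 3 CRISPR libraries were lower, but wt 1 and CRISPR 2 were almost level and the fitted change rested on wt 4. The log2 change was -1.78 with a standard error of 0.66 (interval -3.40 to -0.16, unadjusted p = 0.0363, adjusted p = 1.0), and -0.53 without wt 4. The order held in the left-out libraries, at 1.72 and 1.77 CPM in wt against 0.465 CPM in CRISPR 3. vg, which specifies indirect flight muscle and wing pouch, differed by little, at 233 CPM in both wt libraries and 253, 242 and 239 CPM in CRISPR (0.07, interval -0.30 to 0.45). Its partner sd was at 631 and 617 CPM in wt against 549.6, 593 and 591 CPM in CRISPR (-0.11, interval -0.50 to 0.28). Both are members of the AMP list and were fully separated, in opposite directions, although neither differed by more than its interval.

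Myoblast fusion genes differed least of the muscle lists. Of 17 tested, 0 passed and 0 separated, the log2 changes ran from -0.18 to 0.19, and for 16 the interval lay within a 2-fold change. Examples were the cell adhesion gene sns (27.9 and 20.1 CPM in wt, 27.4, 20.1 and 16.0 CPM in CRISPR) and the adaptor gene rols (199 and 167 against 205, 177 and 120.5 CPM). For both, CRISPR 1 was close to wt 1 and CRISPR 4 was the lowest library.

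Genes of the contractile apparatus were highest in CRISPR 2 and lower in the other CRISPR libraries. Of 24 tested, 0 passed and 0 separated, and the median log2 change was 0.74 with all 5 libraries but -0.84 without CRISPR 2. The myosin heavy chain gene Mhc had 33.7 and 6.73 CPM in wt against 21.8, 157 and 4.09 CPM in CRISPR. The myosin light chain gene Mlc1 had 15.6 and 13.0 CPM in wt against 6.32, 71.0 and 4.74 CPM in CRISPR, and the actin gene Act57B had 84.6 and 54.2 against 45.4, 376 and 27.0 CPM. CRISPR 2 was the highest kept library for all 3 genes, and for 21 of the 24, while CRISPR 1 and CRISPR 4 lay below the wt library of the same number for all 3. In the left-out libraries CRISPR 3 was below wt 2 and wt 3 for 20 of the 24, with Mhc at 2.28 CPM against 30.0 and 33.3 CPM. The list summed to 3010 CPM in CRISPR 2 and to 1506 to 1999 CPM in the other kept libraries, and whether differentiated muscle was present in the CRISPR 2 dissection was not tested. Over the whole muscle group, from precursors to sarcomere, 76 of 88 matched genes were tested, 0 passed, 1 had an unadjusted p under 0.05 and 4 (5.26%, beside 9.46% of all genes) were separated. The group shares ct, vg, sd, salm, salr, tup, caup, ara and Dr with the epithelial group below, and sd also with the growth group. The separated genes vg and sd thus count in more than 1 group, and whole-disc RNA does not assign them to muscle precursors.

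**Figure D2:**
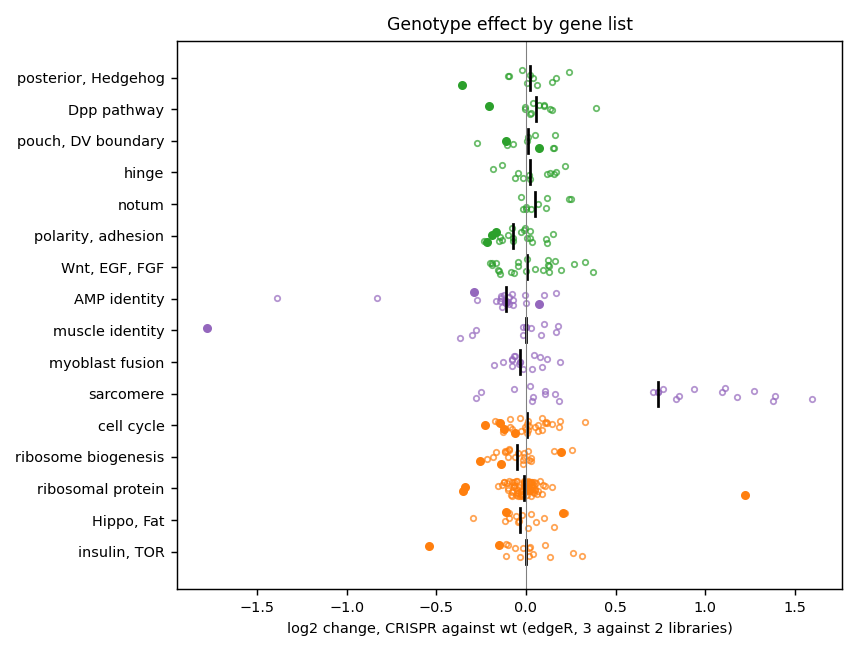
Fitted log2 change of each tested member of 16 gene lists, CRISPR against wt, with epithelial lists in green, muscle lists in purple and growth lists in orange; filled points are fully separated genes and black bars are list medians. Most medians lie near 0, and the sarcomere list stands at 0.74 with none of its 24 members separated.

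The epithelium was measured more tightly, and its genotype differences were small. Of 100 matched genes for compartments, pouch, hinge, notum, polarity and signalling, 99 were tested, 0 passed and 0 had an unadjusted p under 0.05. Their log2 changes ran from -0.35 to 0.39 with a median of 0.01, and for 84 of them (84.8%) the interval lay within a 2-fold change. Full separation held for 7 (7.07%, beside 9.46% of all genes), with 1 above and 6 below, none of them with a ratio of 1.5.

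The largest separated difference was in ci (FBgn0004859, chromosome 4, 47710 to 57041), which encodes the transcription factor of the Hedgehog pathway in anterior cells and overlaps asRNA:CR43957. It had 850.4 and 819 CPM in wt against 720.4, 635 and 604 CPM in CRISPR, a log2 change of -0.35 with a standard error of 0.17 (interval -0.77 to 0.06, unadjusted p = 0.0822, adjusted p = 1.0). All 3 CRISPR libraries lay below both wt libraries, whereas the left-out wt 2 and wt 3, at 626 and 601 CPM, were in the range of CRISPR. The posterior genes hh and en, a ligand and a selector gene, overlapped: hh had 79.8 and 104 CPM in wt against 116, 100.5 and 108 CPM in CRISPR (0.24, interval -0.21 to 0.69), and en 79.6 and 90.1 against 89.2, 108 and 89.2 CPM (0.17, interval -0.25 to 0.59).

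In the Dpp pathway, only put, the type II receptor gene, separated, at 196 and 209.6 CPM in wt against 184, 154 and 190.1 CPM in CRISPR (-0.20, standard error 0.17). brk, a repressor of Dpp targets, had the widest spread, at 107 and 88.7 CPM in wt against 168, 138 and 78.3 CPM in CRISPR (0.39, standard error 0.34). For brk, CRISPR 1 and CRISPR 2 were above both wt libraries and CRISPR 4 was below them. The ligand gene dpp overlapped, with a log2 change of 0.14 (interval -0.56 to 0.84).

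Regional selector genes were close to level. nub, a marker of the wing pouch, had 279 and 321 CPM in wt against 354, 333 and 314 CPM in CRISPR (0.15, interval -0.26 to 0.57), and mirr, an Iroquois gene of the notum, 162 and 122 against 202, 182 and 123 CPM (0.25, interval -0.40 to 0.91). The hinge gene zfh2 showed 904 and 571 CPM in wt against 968, 929 and 504 CPM in CRISPR, high in wt 1, CRISPR 1 and CRISPR 2 and low in wt 4 and CRISPR 4, and the left-out wt 2 was as low (499 CPM). pnr, which patterns the medial notum, and eyg, another notum gene, differed by log2 changes of 0.12 and 0.07. Neither the hinge list (12 tested) nor the notum list (10 tested) held a separated gene.

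Among 21 polarity and adhesion genes 3 separated, all lower in CRISPR (14.3%, beside 4.49% of all genes below). alpha-Cat, which links cadherin to actin, had 446 and 413 CPM in wt against 378, 340.4 and 388 CPM in CRISPR (-0.22, interval -0.62 to 0.18). The catenin gene p120ctn (304 and 315 against 278, 241 and 294 CPM) and the polarity kinase gene aPKC (252.6 and 248.8 against 231.8, 218.2 and 220.2 CPM) had log2 changes of -0.19 and -0.17. Each of these differences was smaller than its interval, and the list median was -0.07, or 0.13 without wt 1. Of 24 tested genes of the Wnt, EGF and FGF pathways, 0 separated; Notum, a secreted inhibitor of Wnt, had the smallest p at 39.4 and 54.6 CPM in wt against 58.7, 58.4 and 52.8 CPM in CRISPR (0.27, interval -0.20 to 0.73).

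**Figure D3:**
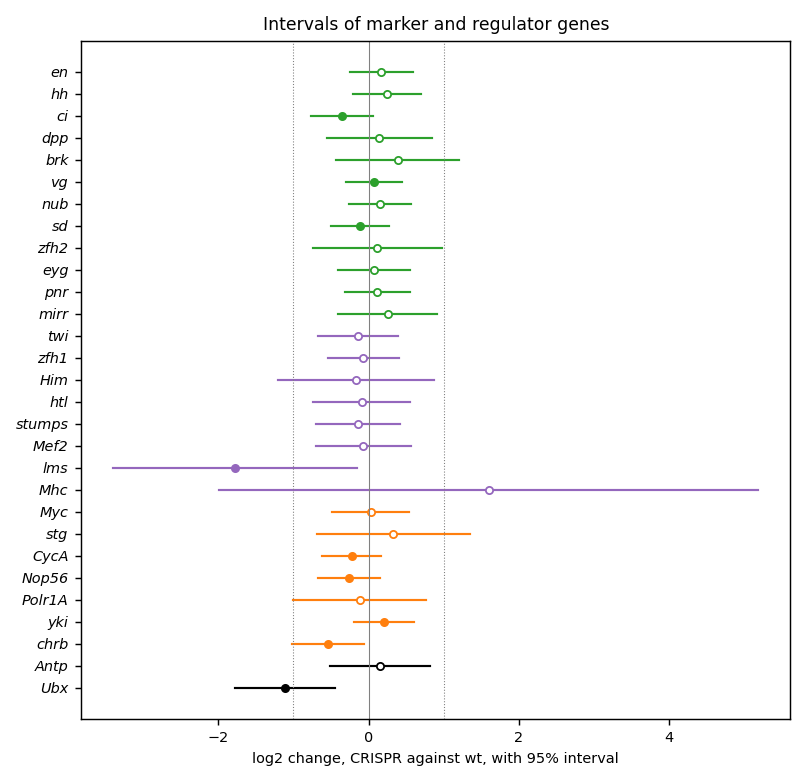
Fitted log2 changes, CRISPR against wt, with 95% intervals for epithelial genes (green), muscle genes (purple), growth genes (orange) and Hox genes (black); filled points are fully separated genes and dotted lines mark log2 changes of -1 and 1. Intervals of Ubx, lms and chrb do not include 0, although none of these genes passed after adjustment over 9330 genes, and the interval of Mhc runs from -1.99 to 5.18.

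Growth genes were the most precisely measured of the 3 groups. Of 167 matched genes of the cell cycle, nucleolus, ribosome, Hippo and insulin pathways, 164 were tested, 0 passed and 1 had an unadjusted p under 0.05. For 153 of them (93.3%) the interval lay within a 2-fold change, and 14 (8.54%, beside 9.46% of all genes) separated, 3 above and 11 below.

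chrb (FBgn0036165, 3L, 11487550 to 11499055), an inhibitor of TOR signalling that responds to stress, had the smallest p of the group. It was at 440.3 and 322 CPM in wt against 248, 281 and 258 CPM in CRISPR. All CRISPR libraries lay below both wt libraries, the log2 change was -0.54 with a standard error of 0.20 (interval -1.02 to -0.06, unadjusted p = 0.0335, adjusted p = 1.0), and it was -0.29 without wt 1. In the left-out libraries the level was 288 and 281 CPM in wt against 282 CPM in CRISPR 3, with no separation. Akt, the kinase that carries the insulin signal, was lower by a small margin, at 260.1 and 243 CPM in wt against 237, 212 and 229.9 CPM in CRISPR (-0.15, interval -0.54 to 0.24).

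Of 31 cell cycle genes 4 separated, all below (12.9%, beside 4.49% of all genes below and 9.46% in either direction). CycA, a cyclin of S phase and mitosis, had 422 and 389 CPM in wt against 353, 328 and 357 CPM in CRISPR (-0.23, interval -0.62 to 0.16), and the mitotic kinase gene aurA 46.5 and 47.0 against 42.4, 43.4 and 40.9 CPM (-0.15, interval -0.48 to 0.18). The list median was 0.01. stg, the Cdc25 phosphatase gene that triggers mitosis, overlapped widely, at 345 and 177 CPM in wt against 421, 366 and 197 CPM in CRISPR (0.33, interval -0.69 to 1.35). The libraries numbered 4 were the lowest of each genotype.

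Nucleolar and ribosomal genes differed in both directions. Nop56, a core protein of nucleolar RNA-modifying particles, had 432 and 379 CPM in wt against 317, 339 and 363 CPM in CRISPR (-0.26, interval -0.67 to 0.16). vito, a nucleolar growth gene, had 25.0 and 26.2 against 29.8, 27.4 and 30.9 CPM (0.20, interval -0.16 to 0.55), an order that held over all 8 libraries. Myc, the growth regulator upstream of many of these genes, overlapped at 449 and 327 CPM in wt against 393, 437 and 357 CPM in CRISPR (0.03, interval -0.48 to 0.54). Polr1A, the largest subunit of RNA polymerase I, was at 272 and 130.2 CPM in wt against 212, 209 and 136 CPM in CRISPR (-0.12, interval -1.0 to 0.77), low in both libraries numbered 4.

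Ribosomal protein genes were measured tightly, with 75 of 77 intervals within a 2-fold change and a median log2 change of -0.01. RpS19b, RpS15Ab and RpS5b were separated, and each is a copy of a more abundant gene. Whether the handling of reads that fit more than 1 copy bears on their counts was not tested. RpS19b had 0.926 and 1.82 CPM in wt against 2.08, 2.49 and 5.03 CPM in CRISPR (1.22, standard error 0.57, adjusted p = 1.0), and the order held over all 8 libraries. RpS15Ab had 88.3 and 98.8 CPM in wt against 71.7, 63.3 and 85.3 CPM in CRISPR (-0.35, standard error 0.19). Among 16 Hippo and Fat genes, yki, the growth-promoting coactivator, was higher in each CRISPR library, at 75.5 and 73.9 CPM in wt against 96.6, 82.6 and 79.1 CPM in CRISPR (0.21, interval -0.20 to 0.61).

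Because wt 4 and CRISPR 4 resembled each other most, the genotype effect was also taken within the same-numbered pairs, CRISPR 1 against wt 1 and CRISPR 4 against wt 4. The alternative was added after seeing the data, and CRISPR 1 was set against wt 1 by number alone. These pairs share no library, and CRISPR 2 has no wt partner among the kept libraries. Over all genes tested the 2 effects had the same sign for 50.7% and a Spearman rho of 0.06 across genes, which are not independent replicates. The epithelial group had the same sign in 43 of 99 genes, the muscle group in 38 of 76 and the growth group in 98 of 164. Sarcomere genes had medians of -0.37 and -0.99 (differences of log2 of CPM plus 0.5), with the same sign in 21 of 24. With CRISPR 2 averaged into the first effect their median there was 0.49, with the same sign in 3 of 24. Ribosomal protein genes had medians of 0.04 and 0.11, with the same sign in 57 of 77, or -0.10 and 12 of 77 with CRISPR 2 averaged in. Nucleolar genes of ribosome biogenesis had medians of -0.22 and 0.09, with the same sign in 4 of 24, and polarity and adhesion genes -0.05 and -0.09, with the same sign in 13 of 21. In the first and second pair, the effect was -0.24 and -0.44 for ci, -0.99 and -1.69 for Ubx, and -0.83 and -0.32 for chrb.

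**Figure D4:**
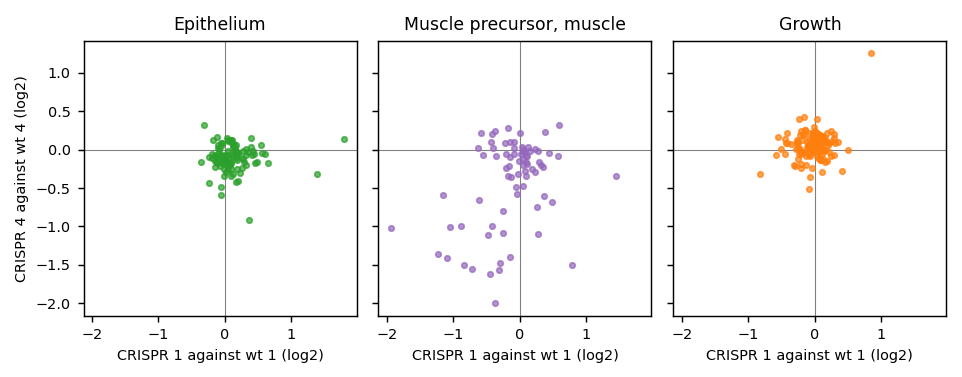
Genotype effect in each same-numbered pair for tested genes of the epithelial, muscle and growth groups, with CRISPR 1 against wt 1 on the horizontal axis and CRISPR 4 against wt 4 on the vertical axis, both as differences of log2(CPM + 0.5); each point is 1 gene. Most epithelial and growth genes cluster around 0 on both axes, and many sarcomere genes of the muscle group lie at the lower left, with list medians of -0.37 and -0.99.

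The widest genotype gaps were in genes outside the epithelial, muscle and growth lists. Antdh (FBgn0026268, X, 11168030 to 11169058), a dehydrogenase gene named for its antennal expression, had 11.7 and 5.78 CPM in wt against 0, 0.0249 and 0.0449 CPM in CRISPR. The CRISPR libraries held 3 reads in all against 748 in wt, so that wt was higher by a ratio of 336 (95% counting interval 114 to 1632), and CRISPR 1, with no read, could hold up to 0.0916 CPM. It had the lowest adjusted p of the comparison, 0.296, and the order held over all 8 libraries. CG7173 (FBgn0037099, 3L, 21555373 to 21558226) had 0.390 and 0.411 CPM in wt against 4.73, 4.95 and 6.40 CPM in CRISPR, a log2 change of 3.73 with a standard error of 0.39 (interval 2.77 to 4.69, adjusted p = 0.337), and it also separated over all 8. sordd2 had 1 read in wt and 567 in CRISPR, a ratio of 421 (75.3 to 16659), at 11.5, 3.18 and 1.39 CPM in CRISPR. Both Antdh and CG7173 were called once a term for the libraries numbered 4 was added (adjusted p of 0.0170 and 0.0368). DESeq2 also called these 2 genes and sordd2.

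Hsp70Ba (FBgn0013277, 3R, 12465453 to 12467776), 1 of several near-identical copies of the heat-inducible chaperone gene, had 6.97 and 3.18 CPM in wt against 130.2, 53.02 and 72.8 CPM in CRISPR. The groups were far apart, with a log2 change of 4.07 and a standard error of 0.57 (interval 2.69 to 5.46, adjusted p = 0.821), while DESeq2 called it (adjusted p = 8.4e-13). The other copies overlapped, among them Hsp70Bb at 775 and 360.1 CPM in wt against 1076, 284 and 349 CPM in CRISPR. Whether the handling of reads that fit several copies bears on Hsp70Ba was not tested. Of 15 tested heat shock genes 4 were separated, all above (26.7%, beside 4.97% of all genes above). The small heat shock genes Hsp67Bc (4.80 and 15.9 against 43.0, 28.5 and 34.1 CPM), Hsp27 (2506 and 4065 against 5078, 4438 and 4999 CPM) and Hsp23 (4693 and 4539.7 against 10104, 6716 and 4838 CPM) had log2 changes of 1.76, 0.56 and 0.65. The median of the list was 0.10, and it was -0.22 without CRISPR 1 and -0.12 without wt 4. CRISPR 3 lay below wt 2 and wt 3 for all 3 small heat shock genes.

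The P450 genes Cyp4p2 and Cyp4p1 separated mainly through CRISPR 2 and CRISPR 4. Cyp4p2 had 0.0487 and 0.0433 CPM in wt, 0.153 CPM in CRISPR 1, and 113 and 101 CPM in CRISPR 2 and CRISPR 4. Its neighbour and relative Cyp4p1 followed the same order, at 0.0244 and 0.0216 CPM in wt against 0.0305, 35.6 and 18.9 CPM in CRISPR. For Cyp4p1, however, wt 1, wt 4 and CRISPR 1 each held 1 read, under the level that a count of 0 allows. The place of CRISPR 1 above wt came from library scaling alone, so the full separation of Cyp4p1 is not a difference in reads for that library. CRISPR 1 thus lay with wt, and without it Cyp4p2 was the 1 gene that edgeR called. The larval cuticle gene Lcp3 had 0.560 and 0.260 CPM in wt against 7.11, 34.2 and 1.01 CPM in CRISPR. Cuticle genes did not all go that way. Lcp1, Lcp2, Lcp4 and Lcp9 overlapped between genotypes, and Cpr47Ee was lower in every kept CRISPR library.

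Other genes were lower in CRISPR by a smaller factor, with little spread among libraries of a genotype. tut, an RNA-binding protein gene known from the male germline, had 35.3 and 34.9 CPM in wt against 19.0, 14.4 and 17.7 CPM in CRISPR (-1.04, standard error 0.18, interval -1.48 to -0.61, adjusted p = 1.0). Tektin-C, a gene for a protein of sperm flagella, had 73.5 and 92.6 against 31.8, 45.7 and 40.3 CPM (-1.08, standard error 0.21). The adenylate kinase gene Adk3 had 58.1 and 54.0 against 37.96, 28.2 and 31.0 CPM (-0.79, standard error 0.18). All 3 genes were lower in CRISPR over all 8 libraries. Elp2, a subunit of the Elongator complex, had 159.7 and 142 CPM in wt against 86.4, 96.1 and 101 CPM in CRISPR (-0.67, standard error 0.16), and the serpin gene Spn27A had 238 and 207 against 142, 140.4 and 158 CPM (-0.60, standard error 0.16). The genes pst, sunn and CG42272 completed the 10 lower genes chosen by p, with log2 changes of -1.0, -1.58 and -0.48. Being separated was a condition of that choice, and choosing by p favours little spread, so neither trait is a result. DESeq2 called tut and Tektin-C.

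**Figure D5:**
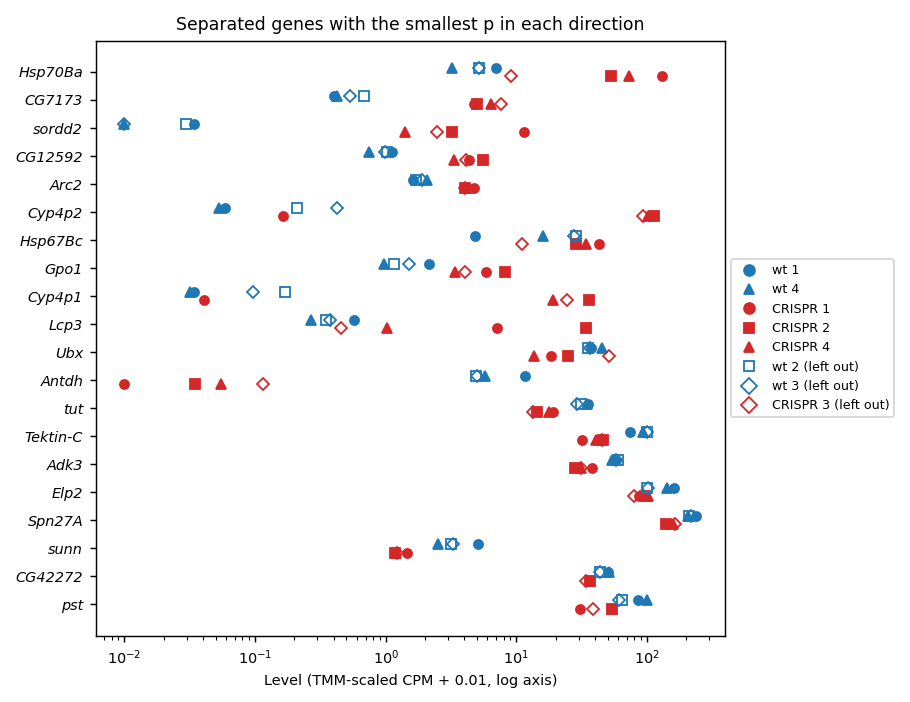
Levels of the 10 higher and 10 lower genes with the smallest p among separated genes with an average log2 CPM of at least 1, as TMM-scaled CPM plus 0.01 on a log axis; blue marks wt, red CRISPR, filled symbols the 5 kept libraries and open symbols the 3 left out. The wt and CRISPR symbols of Antdh, CG7173 and CG12592 stay apart in all 8 libraries, while CRISPR 1 lies beside wt for Cyp4p1 and Cyp4p2.

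Genes of damage, stage and sex were compared between the genotypes as well. Of 18 tested DNA damage genes 1 separated above and 1 below (11.1%, beside 9.46% of all genes), mre11 (a double-strand break repair gene, 76.3 and 78.6 against 57.0, 56.8 and 69.1 CPM, log2 change -0.35) and Xrp1 (a stress-response factor, 377 and 396 against 453, 513 and 419 CPM, 0.26), and 0 passed. No disc damage gene of 14 separated. The ecdysone-regulated nuclear receptor gene Eip75B was higher in CRISPR in all 8 libraries, with 291 and 265 CPM in wt against 391, 404 and 324 CPM in the kept CRISPR libraries (0.43, interval -0.02 to 0.87, adjusted p = 1.0). The ecdysone and stage list summed to 2025 CPM in wt 1, 2712 CPM in CRISPR 1 and 2397 CPM in CRISPR 2, and to 6092 CPM in wt 4 and 6691 CPM in CRISPR 4. Among the left-out libraries CRISPR 3 reached 6741 CPM, and wt 2 and wt 3 were at 3339 and 3329 CPM. The male dosage compensation RNA roX1 was at 393 and 1301 CPM in wt against 393, 98.2 and 1508 CPM in CRISPR. CRISPR 2 was the lowest for it, and the part of the mix of sexes in the results was not tested.

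Summed levels of the marker lists of other tissues overlapped between genotypes. The 25 gut genes, whose levels follow from the choice of libraries, summed to 0.6 to 9.9 CPM in the kept libraries and to 1173 to 2132 CPM in the others. Fat body markers summed to 327 and 626 CPM in wt and 375 to 648 CPM in CRISPR, hemocyte markers to 659 and 949.5 CPM and 563 to 923 CPM, and tracheal markers to 1548 and 2236 CPM and 1461 to 2329 CPM. Of 74 tested marker genes of gut, fat body, salivary gland, neurons, glia, trachea, hemocytes and other discs, 0 passed and 3 (4.05%, beside 9.46% of all genes) separated, all lower in CRISPR, among them Gs2, a glial glutamine synthetase gene (37.5 and 35.4 against 19.8, 33.4 and 26.3 CPM). The calcium channel gene cac stood out within CRISPR, at 1.27 and 1.45 CPM in wt against 0.428, 60.7 and 11.9 CPM in CRISPR, with the genotypes overlapping.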

How the data were processed

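RNA-seq of whole wing discs was analysed from the raw read counts per gene that the authors deposited, 1 table per library. Per the submitters' processing notes, the build was dm6 and the tools were FastQC, Trimmomatic 0.36, STAR and DESeq2. How reads were counted, on which strand and against which annotation is not given in the sources used here. Of the entries in a table, 17559 are gene IDs and 5 entries that name no gene stayed out of library sizes and tests (reads on no feature, 0.955% to 1.91%; ambiguous reads, 3.07% to 3.44%; reads not uniquely placed, 2.22% to 4.40%). Symbols were matched for 17253 IDs, and exon overlaps and coordinates come from Ensembl's BDGP6 annotation, the same assembly.

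For the 5 kept libraries, edgeR 4.0.16 (R 4.3.3) was fitted to the counts (TMM scaling, filterByExpr at 10 reads and 15 in total, two-sided quasi-likelihood test, Benjamini-Hochberg over all genes tested). Adjusted p-values are edgeR's unless another tool is named. The left-out libraries were put on the same TMM scale for their levels and the order over all 8 libraries. Alternatives were RLE factors, no filter, DESeq2 1.42.0, limma-voom 3.58.1, single libraries left out, a block or a term for library number, a length correction and all 8 libraries. The fit was tested on simulated data. At these depths a count of 0 allows 0.0649 to 0.0916 CPM, taking 3 counts as the floor, and floors and counting intervals (95%, exact Clopper-Pearson) cover counting error only.

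The gene lists (30, with 564 of 586 entries matched), the members and the choice of libraries were made with earlier results of these data known. Genes without a match, such as wg and ap, were not analysed here. Named genes are the tested Hox list members, the 3 members with the smallest p of each epithelial, muscle and growth list, the 1 with the smallest p of each other list, and the 10 separated genes with the smallest p in each direction with an average log2 CPM of at least 1. Other separated list members, disc and AMP markers, cuticle genes other than Lcp3 and genes of a heat shock, damage or sex list were named outside that rule.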

Additional observations from a re-analysis of the deposited data

Results flagged for a closer look

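For 12 of the named genes that were fully separated in the kept libraries, the left-out libraries separated the other way, with CRISPR 3 on the opposite side of both wt 2 and wt 3. The difference between the genotype effects was tested with an interaction term in edgeR over all 8 libraries. It called 0 of 9255 genes, with 176 at an unadjusted p under 0.05 and a lowest adjusted p of 1.0. CRISPR 3 is 1 library, so its group has no replicate in that contrast. The 12 genes were chosen for opposite orders in these same libraries, which fixed the sign of each difference. The differences below are therefore a description, and the share of all genes tested with opposite orders was not counted.

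The log2 difference between the effects was -1.62 for Ubx. It was 3.1 for Hsp67Bc, 1.46 for Hsp23 and 1.03 for Hsp27. The other 8 genes had smaller differences. Of these, the difference was 0.48 for Xrp1 and 0.13 for vg, which were higher in the kept CRISPR libraries. It was -0.37 for alpha-Cat, -0.36 for E(spl)m6-BFM, -0.34 for p120ctn, -0.33 for CycA, -0.31 for Nop56 and -0.28 for Akt, which were lower there. The adjusted p was 1.0 for all 12 genes.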

How the results depend on the processing

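The count of called genes stayed at 0 with RLE factors, limma-voom, the length correction, both libraries numbered 4 left out, or the spread of all 8 libraries. edgeR called 4 without a filter, 2 with a term for the libraries numbered 4, and 17 from all 8 libraries by genotype alone, and DESeq2 called 16. Leaving out 1 library gave 0 to 1 calls. With library number as a block, 64 genes were called (18 higher, 46 lower), among them Ubx (-1.37, adjusted p = 0.00209), and 31 with the length correction added; 7 and 4 of these were muscle genes, all of the sarcomere list. Deviations from the genotype means correlated at 0.36 for number 1 and 0.69 for number 4. With 2 wt libraries the deviations of wt 1 and wt 4 mirror each other, so these 2 values are not independent. Besides, 2 pairs do not establish a pairing, and CRISPR 2 has no partner in the block. The sarcomere median was -0.80 with the block. The count of genes separated by 1.5-fold, 310, became 159 at 2-fold, 883 with no fold, 828 without a filter, 133 over all 8 libraries, 1305 with both libraries numbered 4 left out, and 532 to 1267 with 1 library left out. The Antp log2 change ran from -0.16 to 0.54 with 1 library left out and was -0.0407 without the libraries numbered 4. The change of p120ctn was 0.0151 over all 8 libraries. Causes of these shifts were not tested. abd-A, Scr, nau and lms were at a few CPM or below, and the part of depth in their differences was not tested.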
